A study of Drosophila melanogaster with 6 samples.

Results

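The maltase genes of *Drosophila melanogaster* were followed in 6 microarray samples: *Mal-A1* to *Mal-A8*, which lie next to each other on chromosome arm 2R, and *Mal-B1* and *Mal-B2*, which are neighbours on 2L. They were chosen by name, as the 10 genes called *Mal-A* or *Mal-B* among 11804 genes with a probe set of their own. Each had exactly 1 probe set annotated to it alone, so taking the brightest one per gene left no choice to make. None of these probe sets carried the array maker's suffix for probes shared between genes. The samples were labelled as pools of 75 to 100 heads of Canton S females, a wild-type laboratory strain, and no agent or mutant allele was named. There were 3 pools from flies 10 days old and 3 from flies 40 days old, numbered 1 to 3 within each age and described as independent biological replicates. The labels do not say that a number ties a 10-day pool to a 40-day pool. Values are log2 expression made with GCRMA, so a difference of 1 is a 2-fold difference, and levels of different probe sets are not comparable with each other.

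Maltases are alpha-glucosidases, enzymes that release glucose from maltose and short starch fragments by cutting the last alpha-linked unit. In adult flies they are known chiefly as digestive enzymes of the midgut, where they act after amylases have broken starch into maltose. The *Mal* genes are close relatives that arose by duplication, and the separate task of each is not settled. In the fly midgut, sugar in the food is known to lower the expression of amylases and maltases, and the Activin ligand daw takes part in that response.

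The arrays resembled each other, with medians between 7.51 and 7.53 and correlations between 0.974 and 0.992 across the 10286 probe sets whose mean was at least 4, the ones tested. All 10 maltase genes passed that filter. The first principal component held 45.6% of the spread and placed the samples in the order of numbers 1, 3 and 2 at both ages. At 10 and 40 days number 1 scored -17.9 and -21.5, and number 3 scored -5.52 and -2.13. Number 2 lay at the other end, at 26.8 and 20.1. Most maltase genes had this same order, as described below. The samples labelled female heads held transcripts of other tissues, among them male reproductive genes, which are at odds with the label of females. Where these transcripts came from was not tested. Of 28 male reproductive genes listed, 26 had a probe set, with a median level of 14.07, whereas 20 of the 24 ovary and egg genes measured lay under 4 and their median was 2.06, the lowest value in the table. Midgut genes, the tissue in which maltases act, were represented by 30 genes with a median level of 10.69, of which 5 lay under 4, and were led by the proteases *alphaTry*, *Jon65Aiv*, *betaTry* and *Jon65Aiii* at 15.21, 14.96, 14.94 and 14.89. Eye genes had a median of 10.16 over 14 genes, with the arrestin genes *Arr2* and *Arr1* at 14.97 and 14.14. The levels below are therefore those of samples labelled female heads in which gut and male reproductive transcripts were bright. In such bulk samples, fewer cells of a type and less RNA per cell cannot be told apart.

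All 10 maltase genes were lowest in the sample numbered 1 at both ages, and 8 of them were also highest in the sample numbered 2 at both ages. The members had been picked with this difference between the numbers in view, so it is described here without a test. Between the numbers, averaged over the ages, the median range of the members was 1.41 log2, against 0.20 over all probe sets tested. For 7 of the 10 the range was at least 1 with the same number highest and the same number lowest at both ages, a pattern that 2.74% of all probe sets tested showed. The fixed order with number 1 lowest and number 2 highest at both ages, at any size, was found for 8.67% of probe sets tested. The share lowest in number 1 at both ages, whichever number was highest, was not counted.

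**Figure D1:**
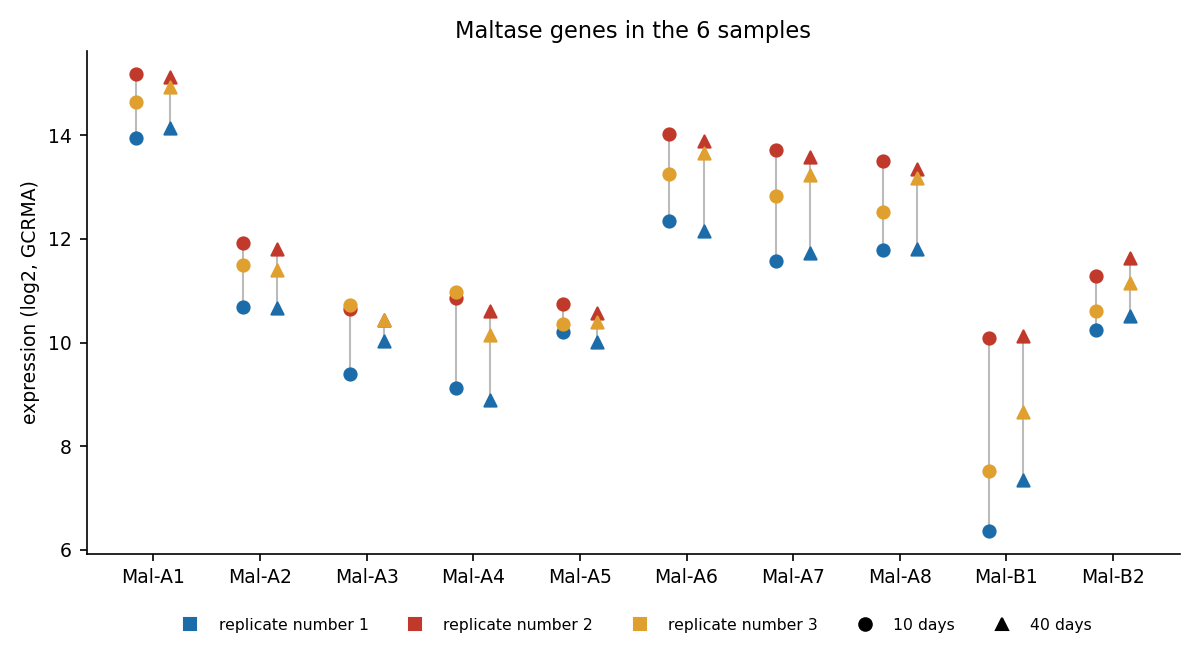
Log2 expression of each maltase gene in every sample, with circles for 10 days, triangles for 40 days, colours for the replicate number and grey lines spanning the 3 samples of an age. Number 1 is the lowest point of every gene at both ages, and the 10-day and 40-day spans overlap for all 10 genes.

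*Mal-B1* had the widest spread. At 10 days it measured 6.37, 10.10 and 7.52 in numbers 1, 2 and 3, and at 40 days 7.35, 10.14 and 8.66. Number 2 thus stood 13.2-fold above number 1 at 10 days and 6.89-fold above it at 40 days, with number 3 between them at both ages. Its neighbour *Mal-B2* kept the same order on a smaller scale, at 10.23, 11.29 and 10.61 at 10 days and 10.52, 11.64 and 11.15 at 40 days. The range between its number means was 1.09, against 3.26 for *Mal-B1*.

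Within the *Mal-A* run, the last genes *Mal-A6*, *Mal-A7* and *Mal-A8* kept one order at both ages with wide steps. *Mal-A6* measured 12.35, 14.03 and 13.25 in numbers 1, 2 and 3 at 10 days and 12.16, 13.89 and 13.65 at 40 days. *Mal-A7* measured 11.58, 13.72 and 12.83, then 11.73, 13.58 and 13.23. *Mal-A8* measured 11.79, 13.50 and 12.52, then 11.80, 13.35 and 13.18. In all 3 genes number 2 exceeded number 1 at least 2.94-fold at each age, and number 3 of 40 days came closer to number 2 than number 3 of 10 days did. Their ranges between number means were 1.71, 1.99 and 1.63.

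*Mal-A1* and *Mal-A2* followed the same order with smaller steps. *Mal-A1* measured 13.94, 15.19 and 14.64 at 10 days and 14.13, 15.12 and 14.93 at 40 days. *Mal-A2* measured 10.68, 11.92 and 11.50 at 10 days and 10.66, 11.80 and 11.40 at 40 days. Number 2 was above number 1 by 2.38-fold and 1.98-fold for *Mal-A1*, and by 2.36-fold and 2.20-fold for *Mal-A2*, at 10 and 40 days. For both genes the 2 samples of a number lay closer together than numbers 1 and 2 of an age.

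The 3 genes in the middle of the run departed from this pattern in different ways. *Mal-A3* measured 9.40, 10.64 and 10.73 at 10 days and 10.03, 10.44 and 10.44 at 40 days. Its number 2 and number 3 samples could not be ranked apart, since they differed by 0.09 or less at each age, and its distance from number 1 was 1.25 at 10 days but 0.42 at 40 days. *Mal-A4* measured 9.12, 10.85 and 10.97 at 10 days and 8.90, 10.61 and 10.15 at 40 days. Number 3 was its highest sample at 10 days and number 2 at 40 days, so it missed the rule of equal ends although its range of 1.72 was the third widest. *Mal-A5* was the steadiest member, at 10.21, 10.75 and 10.36 at 10 days and 10.01, 10.58 and 10.40 at 40 days. Its range between number means, 0.55, was still above the median of 0.20 for all probe sets tested.

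The members resembled each other across the 6 samples, as far as so few points can show. Over the 45 pairs of members, Pearson's r across the 6 samples ran from 0.620, between *Mal-A3* and *Mal-A5*, to 0.997, between *Mal-A1* and *Mal-A7*, with a median of 0.895. The 6 points share 3 replicate numbers, so these values describe mostly the same contrast between numbers as the levels above.

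Compared at each age by itself, number 2 was above number 1 by a median of 1.46 log2 at 10 days and 1.35 at 40 days over the 10 members, against 0.02 and 0.01 over all probe sets tested. An excess of at least 1 log2 at both ages was seen for 7 members and for 1.09% of probe sets tested. These 7 were not quite those of the range rule: *Mal-A4* met the first and not the second, and *Mal-A1*, at 0.99 at 40 days, met the second and not the first. Number 2 stood above number 1 in every member at each age, by at least 0.42. At any size, 38.8% of probe sets tested had number 2 above number 1 at both ages. The difference did not rest on the number 2 samples alone: number 3 was also above number 1 in all 10 members at both ages, by a median of 0.86 at 10 days and 1.03 at 40 days. Of all 10286 probe sets tested, 3369 had number 3 above number 1 at both ages. An excess of number 3 over number 1 of at least 1 log2 at both ages was seen for *Mal-A4*, *Mal-A7* and *Mal-B1*, 3 of the 10, and for 0.233% of probe sets tested.

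**Figure D2:**
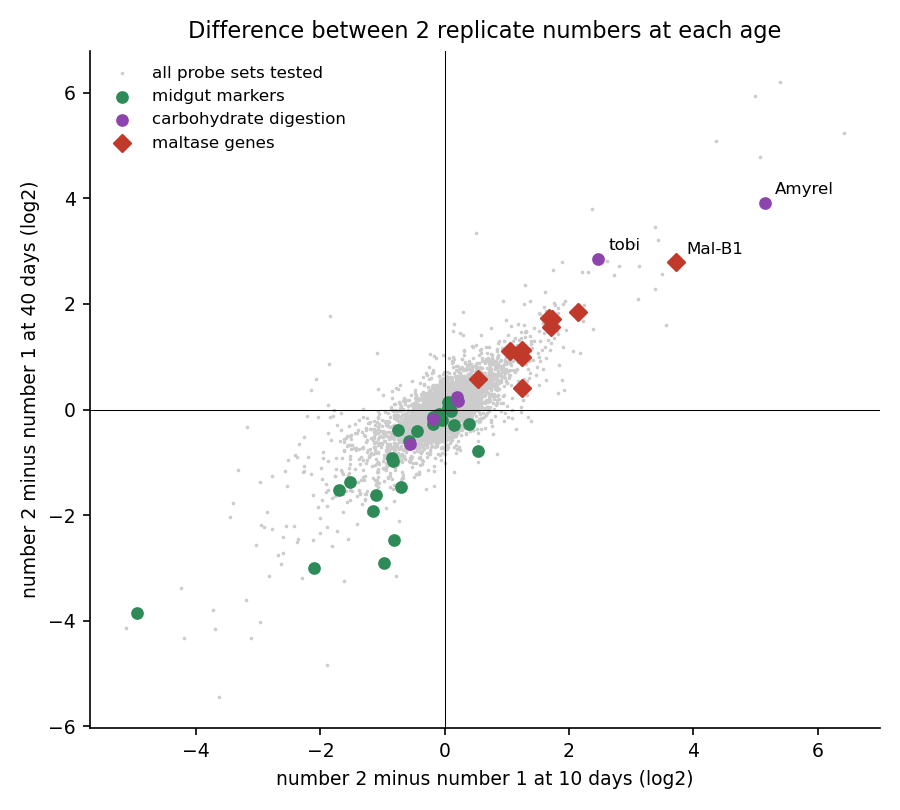
Each point is a probe set, placed by its log2 difference between the samples numbered 2 and 1 at 10 days (horizontal) and at 40 days (vertical), with grey for all 10286 tested, red diamonds for maltase genes, purple for other genes of carbohydrate digestion and green for midgut markers. The maltase genes all lie in the upper right, from *Mal-A5* and *Mal-A3* near the grey mass to *Mal-B1* at 3.73 and 2.78, while midgut markers reach far into the lower left.

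The genes beside the *Mal-A* run did not all share its pattern. Before *Mal-A1* lie 3 cytochrome P450 genes, *Cyp4ad1*, *Cyp4e2* and *Cyp4e1*, and the last of them overlaps *Mal-A1* in the reference gene table. Number 2 minus number 1 was 0.46 and -0.39 for *Cyp4ad1*, 0.53 and 0.34 for *Cyp4e2*, and 0.12 and -0.13 for *Cyp4e1* at 10 and 40 days. After *Mal-A8* comes *mtt*, which encodes a metabotropic glutamate receptor homologue and overlaps *Mal-A8* in that table, and it lay near the lowest value at 2.17. The next gene, *CG12780*, did show the difference, by 1.06 at 10 days and 1.59 at 40 days, and met both rules above. The third, the P450 gene *Cyp6a14*, gave 0.03 and -0.72. Beside the *Mal-B* pair only the odorant receptor genes *Or33a* and *Or33b* had a probe set of their own among 6 neighbours, and both lay at the lowest value in all samples.

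**Figure D3:**
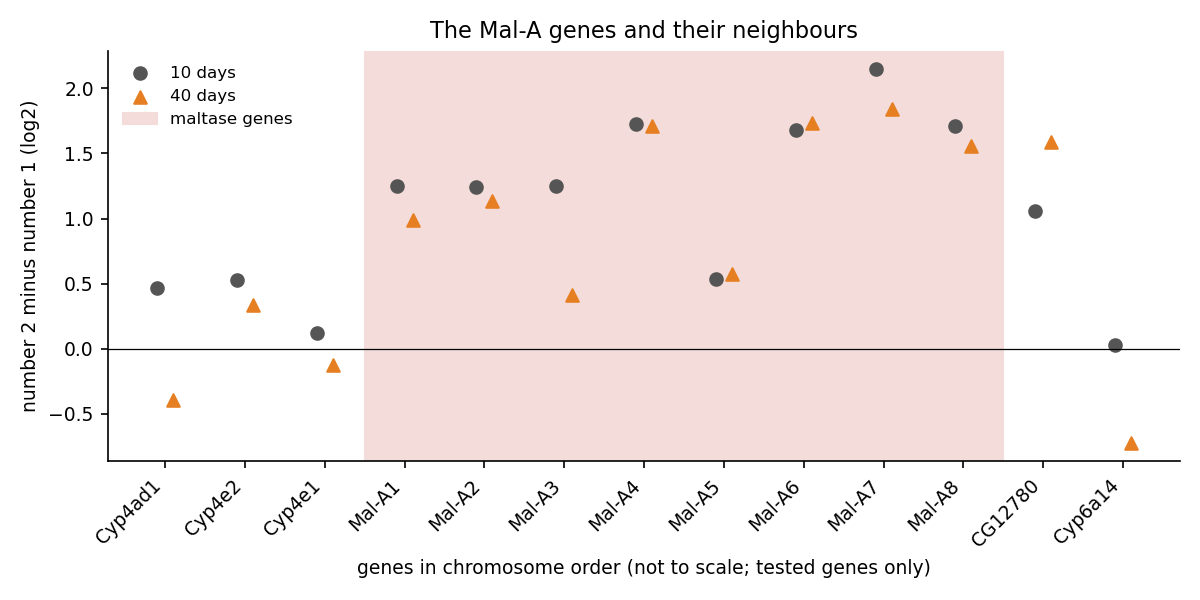
Log2 difference between the samples numbered 2 and 1 at 10 days (circles) and 40 days (triangles) for the 8 *Mal-A* genes, shaded, and their tested neighbours in chromosome order, evenly spaced and not to scale. The difference is near or above 1 for most *Mal-A* genes and for *CG12780*, smaller for *Mal-A5* and for *Mal-A3* at 40 days, and between -0.72 and 0.53 for the P450 genes on either side.

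Among other genes of carbohydrate digestion, 2 of 6 measured exceeded number 1 in number 2 by at least 1 log2 at both ages. The share over all probe sets tested was 1.09%. *tobi*, an alpha-glucosidase gene known as a target of insulin and glucagon-like signals, measured 11.77, 14.23 and 13.19 in numbers 1, 2 and 3 at 10 days and 11.06, 13.91 and 13.63 at 40 days. *Amyrel*, an amylase relative, measured 3.93, 9.07 and 8.33 at 10 days and 3.66, 7.58 and 8.26 at 40 days. *tobi* had number 1 lowest and number 2 highest at both ages, while *Amyrel* was highest in number 2 at 10 days and in number 3 at 40 days. Both number 1 samples of *Amyrel* lay under 4, near background, so the size of that difference depends on the background correction. *Treh*, which encodes the enzyme that splits trehalose, the blood sugar of insects, and *GCS2alpha*, a glucosidase subunit of the endoplasmic reticulum, differed little, by 0.22 and 0.16 and by -0.19 and -0.19 between numbers 2 and 1. *Treh* and *GCS2alpha* were read by probe sets with the suffix for shared probes. The remaining genes, *CG9701* and *CG33080*, gave -0.55 and -0.65 and 0.20 and 0.24, so *CG9701* went the other way. The 2 classical amylase genes had no probe set of their own here. Across the list, the median difference between numbers 2 and 1 was 0.21 at 10 days and 0.20 at 40 days.

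Part of the midgut markers went the other way in the same samples. Of 25 tested, none was higher in number 2 than in number 1 by at least 1 log2 at both ages, and 6 were lower by that much, against 1.16% of all probe sets tested. Their median difference between numbers 2 and 1 was -0.57 at 10 days and -0.59 at 40 days. The protease gene *Jon99Fi* measured 12.33, 7.38 and 9.54 at 10 days and 13.52, 9.67 and 11.01 at 40 days, so number 1 was its highest sample and number 2 its lowest. The summed linear level of the 30 midgut genes measured was 184446 and 178401 in the number 2 samples at 10 and 40 days, and ran from 232400 to 286273 in the other 4. By age it ran from 184446 to 262096 at 10 days and from 178401 to 286273 at 40 days. The sum adds probe sets whose levels are not comparable and is led by the brightest, so it is only a description. The mucin gene *Muc68D* and the trypsin genes *alphaTry* and *betaTry* differed by 0.19 or less in size between numbers 2 and 1 at 10 days, and by 0.27 or less at 40 days. What part the amount of gut tissue had in the maltase differences was not tested.

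Of 19 genes of sugar sensing and its regulation, 3 differed between numbers 1 and 2 by at least 1 log2 at both ages. Those 3 were lower in number 2, where most maltases were highest. Of all probe sets tested, 1.16% were lower in number 2 by that much at both ages and 1.09% higher. *sug*, which encodes the sugar-responsive transcription factor sugarbabe, measured 10.31, 7.77 and 10.26 in numbers 1, 2 and 3 at 10 days and 9.85, 8.39 and 9.49 at 40 days. *daw*, the Activin ligand, read by a probe set with the suffix for shared probes, measured 10.52, 8.75 and 9.97 at 10 days and 10.35, 9.09 and 8.9999 at 40 days. *cbt*, a transcription factor gene regulated by the sugar sensor Mondo, measured 12.14, 11.06 and 11.99 at 10 days and 12.55, 11.22 and 11.83 at 40 days. In number 3 of 10 days all 3 lay closer to number 1 than to number 2, although every maltase gene was above number 1 there. In number 3 of 40 days *daw* was as low as in number 2, while *sug* lay closer to number 1 and *cbt* between the other samples of that age. *Mondo* itself, read like *daw* by a probe set with the suffix for shared probes, was 0.55 and 0.52 higher in number 2. *GATAe*, a gut transcription factor gene, gave -0.37 and -0.02, and the list as a whole a median of -0.06 and 0.02.

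Transport and breakdown of sugar showed smaller steps. Of 20 sugar transporter genes tested, *CG6484* met both rules above. Of all probe sets tested, 2.74% met the range rule and 1.09% the rule of number 2 over number 1. *CG6484* measured 11.64, 12.65 and 11.95 at 10 days and 10.54, 11.95 and 11.31 at 40 days. The list's median difference between numbers 2 and 1 was -0.03 and 0.08. Of 16 genes of glycolysis, glycogen and trehalose synthesis, 15 were higher in number 2 than in number 1 at both ages, against 38.8% of all probe sets tested. Their medians were 0.56 and 0.34. In 10 of the 16, number 1 was lowest and number 2 highest at both ages, against 8.67% of all probe sets tested. Among the 16, *AGBE*, the glycogen branching enzyme gene, and *UGP* met the range rule. Fat body markers, which include *tobi*, had medians of 0.34 and 0.39 over 13 genes tested. Of these, the lipase gene *bmm*, *tobi* and the yolk protein gene *Yp3* were at least 1 log2 higher in number 2 at both ages. The share over all probe sets tested was 1.09%. *Npc2d* was lower by 2.60 and 2.72 on the log2 scale. Male reproductive genes had medians of -0.33 and -0.13, and eye genes of 0.00 and 0.03.

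**Figure D4:**
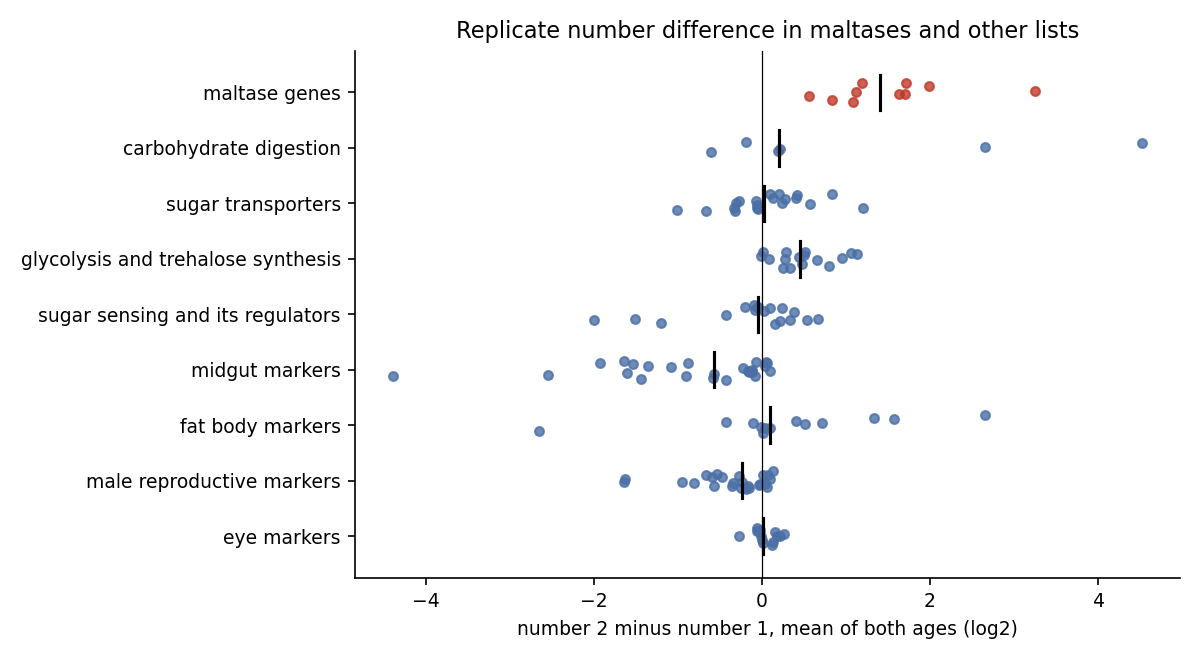
Log2 difference between the samples numbered 2 and 1, averaged over both ages, for each tested gene of 9 lists, with a black bar at the list median and vertical jitter for legibility. The maltase genes lie wholly above 0, the midgut markers mostly below it, and the eye markers close to it.

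The genes with the profile most like the maltases were sought among 847 genes with a mean of at least 4 and a range of at least 1 across the samples. Against the mean profile of the 10 members, the highest Pearson's r over the 6 samples were those of *CG32444* at 0.993, *CG31089* at 0.984, *CG4377* at 0.982, *Nepl12* at 0.981, and *CG34040* and *CG31104* at 0.980. In the number 1 samples *CG31089* lay near background, at 2.68 at 10 days and 2.76 at 40 days, so its profile depends on the background correction. *CG32444* measured 13.52, 14.72 and 14.21 in numbers 1, 2 and 3 at 10 days and 13.61, 14.78 and 14.52 at 40 days. In all, 25 of the 847 genes reached 0.95, among them *tobi* at 0.959 and the transporter gene *CG1213* at 0.962. Against *Mal-B1* alone, the member with the widest range, the highest were *Nepl12*, a neprilysin-like peptidase gene, at 0.985, *CG7059* and the metallothionein gene *MtnD* at 0.982, and *P5cr-2*, a gene of proline synthesis, at 0.981. With the mean maltase profile, among the genes of digestion, the midgut, sugar transport and sugar sensing for which it was computed, r was most negative for *daw* at -0.946, the protease genes *epsilonTry* at -0.933 and *Jon65Ai* at -0.918, *cbt* at -0.906, *Jon99Fi* at -0.873 and *sug* at -0.821. These values rest on 6 samples with 3 shared numbers and are given as a description.

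Between 40 and 10 days, no maltase gene passed the test, with or without the replicate number as a block. Limma with Benjamini-Hochberg adjustment called 0 of the 10, against 0.340% of all probe sets tested, and with the block also 0, against 1.92%. At an unadjusted p under 0.05, limma picked 0 members without the block, against 13.1% of all probe sets tested, and 3 with it, against 25.1%. The 10-day and 40-day samples overlapped for all 10 genes, and 19.8% of probe sets tested showed no overlap. The members were picked with the spread between numbers in view, and a wide spread within each age makes such overlap likely. The count of overlaps is therefore no result about age. Over the members the median difference between 40 and 10 days was 0.09 log2, against 0.01 over all probe sets tested. In each of the 10 genes the age difference was smaller in size than the range between number means. That comparison was largely set by picking members for their difference between numbers. It also puts a range of 3 means against a difference of 2, so it is only a description.

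Paired by number, *Mal-B2* was higher at 40 days in all 3 pairs, by 0.29, 0.35 and 0.53 log2 in numbers 1, 2 and 3. Its mean was 10.71 ± 0.54 at 10 days and 11.10 ± 0.56 at 40 days (mean ± SD, n = 3 each), which did not pass the test (limma adjusted p = 0.681 without the block and 0.0718 with it). The mean difference was 0.39, with a 95% interval from 0.21 to 0.57 with the block and from -0.52 to 1.29 without it. *Mal-B1* was also higher at 40 days in every pair, by 0.98, 0.04 and 1.14, from 7.996 ± 1.91 to 8.72 ± 1.39. Its pair of number 2, where the gene was highest, hardly differed. Limma gave a difference of 0.72 for *Mal-B1* with adjusted p = 0.818, and 0.157 with the block. Without both samples of number 2 and with the block, a fit on 2 pairs, the difference was 1.06 at adjusted p = 0.0344.

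*Mal-A4* and *Mal-A2* were lower at 40 days in all 3 pairs. The differences of *Mal-A4* were -0.22, -0.24 and -0.82, with a mean of -0.43 and a 95% interval with the block from -0.79 to -0.07 (limma adjusted p = 0.812, and 0.158 with the block). Those of *Mal-A2* were -0.02, -0.12 and -0.11, with a mean of -0.08 and an interval from -0.22 to 0.05 (limma adjusted p = 0.948, and 0.365 with the block). The other 6 members were higher at 40 days in some pairs and lower in others.

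Of those 6, *Mal-A3* went from 0.63 in number 1 to -0.28 in number 3, and *Mal-A8* from -0.15 in number 2 to 0.66 in number 3. The mean differences of *Mal-A1*, *Mal-A3*, *Mal-A5*, *Mal-A6*, *Mal-A7* and *Mal-A8* lay between -0.11 and 0.17, with limma adjusted p from 0.841 to 0.988, and from 0.324 to 0.909 with the block. With the block, the 95% interval of 9 of the 10 members stayed within 1 log2 on either side of 0, so 2-fold differences with age lay outside it. The exception was *Mal-B1*, whose interval ran from 0.12 to 1.32. Without the block that held for 2 members, *Mal-A3* and *Mal-A5*, and missing the threshold in so few samples does not show that a difference was absent.

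**Figure D5:**
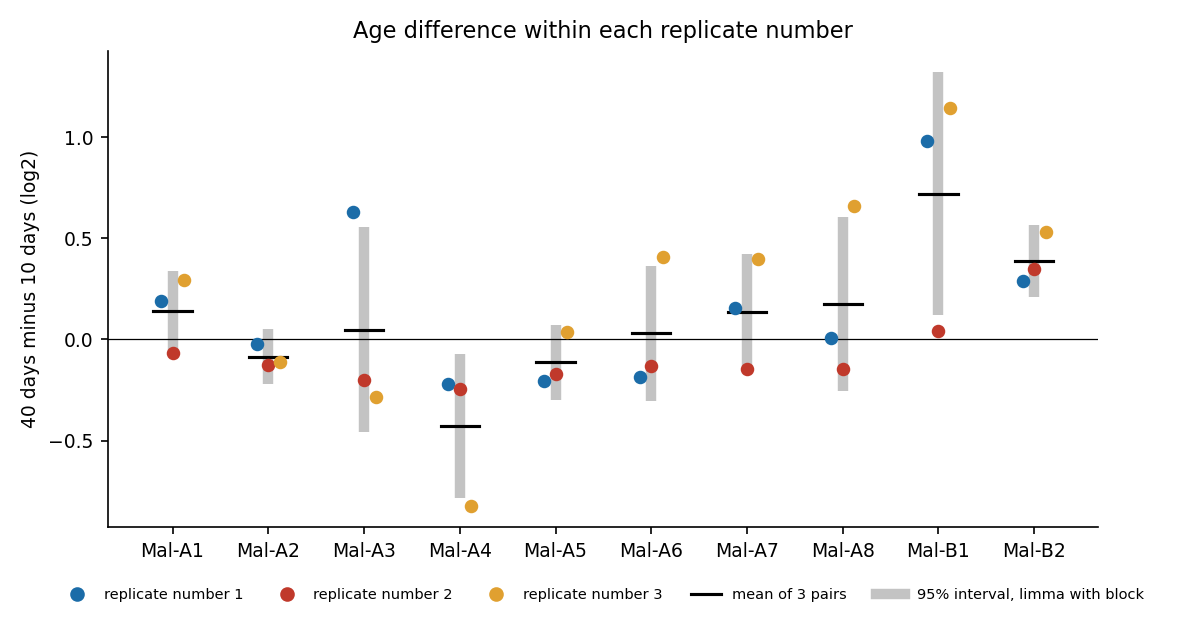
Log2 difference between 40 and 10 days within each replicate number (coloured points), their mean (black line) and the 95% interval of limma with the block (grey bar) for each maltase gene. *Mal-B1* and *Mal-B2* have all 3 points above 0, *Mal-A2* and *Mal-A4* all 3 below, and the other genes have points on both sides.

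The other carbohydrate genes gave no call between the ages either, except *CG6484* with the block. Of all probe sets tested, limma called 0.340% without the block and 1.92% with it. None of the 6 genes of carbohydrate digestion passed by limma with or without the block, and *CG33080*, *Amyrel*, *Treh* and *tobi* gave -0.25, -0.61, 0.03 and -0.20 (adjusted p = 0.558, 0.911, 0.929 and 0.948). Of the 20 sugar transporters none passed without the block, with *CG15406*, *CG14605*, *sut1* and *CG6484* at 0.20, -0.32, -0.18 and -0.81 (adjusted p from 0.405 to 0.460). With the block *CG6484* fell past the threshold, at adjusted p = 0.0429. The 16 genes of glycolysis and the 19 of sugar sensing held no call in either fit. *Glys*, the glycogen synthase gene, gave 0.52 and *babo*, an Activin receptor gene, -0.44 (limma adjusted p = 0.373 and 0.310 without the block). *Glys* was read by a probe set with the suffix for shared probes. Of the 25 midgut markers none passed without the block. With it 3 did, against 1.92% of all probe sets tested, *Jon99Fi* higher and *Jon74E* and *mag* lower at 40 days.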

How the data were processed

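Biotin-labelled RNA, amplified from 150 ng per pool per the labels, was hybridised to Affymetrix 3' arrays. The deposited log2 values were made with GCRMA by the authors, per the submitters' processing notes; for its version and any filters the sources used here give nothing. They were used without further normalization. Of 15131 probe sets, 13333 had 1 gene in the platform annotation, 390 several and 1408 none. Gene order came from RefSeq's Release 6 plus ISO1 MT table.

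Probe sets with a mean of at least 4 were tested with limma 3.58.1 in R 4.3.3 (lmFit, eBayes with trend; two-sided; Benjamini-Hochberg over 10286 probe sets; threshold 0.05), without and with the replicate number as a block. After removal of age means, same-numbered samples correlated at 0.707, 0.772 and 0.353, all above 0.1, so the numbers were taken to pair them. P-values without the block measure the spread between these pools within an age. Those with the block measure how the age difference varied between the numbers, and they rest on a pairing inferred from these data. The test without the block was checked on simulated data in which the samples were independent. The fit with the block was not checked in this way.

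The members and lists were chosen with earlier results of these data known. Named were all members, their 3 nearest protein-coding genes on each side, up to 4 genes per list by smallest adjusted p (by level for markers), and the 6 and 4 genes most like the mean profile and *Mal-B1*. Other names, such as *tobi*, *sug*, *daw*, *cbt* and *Jon99Fi* for their differences between numbers, were chosen after their values were seen. Alternatives were other filters, scalings and variance models, a floor at 4, the mean of all probe sets, and samples left out.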

Additional observations from a re-analysis of the deposited data

How the results depend on the processing

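The 0 members called between the ages stayed 0 in all alternatives but 1. With the replicate number as a block and without both samples of number 2 it was 1, *Mal-B1*, in a fit with 1 residual degree of freedom. The 7 members with a range of at least 1 between numbers stayed 7 with centred or quantile normalized arrays, and the rule of number 2 over number 1 also gave 7. With no filter, values floored at 4 or the mean of all probe sets the count could not change. Each member had 1 probe set, passed the filter and had no value under 4. The 35 probe sets called between the ages became 198 with the replicate block, 118 with the block and without both samples of number 2, 21 when only means of at least 6 were kept, and 17 when both samples of number 2 were dropped. Without both samples of number 1 or of number 3, alternatives chosen after seeing the data, they were 8 and 0. With 1 sample left out they ran from 16 to 32, and the members' median difference from -0.31 to 0.50. Without both samples of number 1, *Mal-A3* turned to -0.24, and without both of number 3, *Mal-A6* turned to -0.16 and *Mal-A8* to -0.070. With 1 sample left out the sign of the uncalled age difference turned for 9 members, all but *Mal-B2*: the differences ran from -0.19 to 0.44 for *Mal-A1*, -0.43 to 0.23 for *Mal-A2*, -0.38 to 0.28 for *Mal-A3*, -1.03 to 0.065 for *Mal-A4*, -0.24 to 0.047 for *Mal-A5*, -0.40 to 0.57 for *Mal-A6*, -0.43 to 0.69 for *Mal-A7*, -0.23 to 0.66 for *Mal-A8* and -0.092 to 1.77 for *Mal-B1*. That of *Mal-B2*, 0.39, kept its sign but ran from 0.12 without day 40 replicate 2 to 0.68 without day 40 replicate 1. Dropping 1 sample of a pair leaves its number in 1 age alone, so these fits mix the ages with the numbers by construction. The number of arrays limits the precision, and values near 4 are near background.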
